A study of Mus musculus with 16 samples.

Results

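Transcripts of the p53 pathway were followed in livers of mice, all of them dosed with oxaliplatin, a chemotherapy drug whose platinum binds and crosslinks DNA. The 32 genes, p53 itself with its regulators and well-known targets, were chosen by gene symbol from a table of 40840 symbols, and all 32 were found and passed the filter on low counts, among 14484 genes tested. The mice were 12 to 16 weeks old males, either wild type C57BL/6J (WT) or Cry1-/-Cry2-/- in a C57BL/6J background (CryDKO), a knockout of the cryptochromes, which repress the circadian clock. Doses of 12 mg/kg were injected into the peritoneum on 3 days in a row, per the treatment protocol, at circadian time 8 (CT8) or 16 (CT16) in constant darkness, although the design text also speaks of a single dose. The 4 groups, WT_CT8, WT_CT16, CryDKO_CT8 and CryDKO_CT16, hold 4 libraries each. No untreated group was analysed here, so none of the values measures the response to the drug itself. The sources used here do not give the time at which livers were collected, so dosing time and the phase at collection cannot be told apart.

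The protein p53 is a transcription factor that is kept low by the ubiquitin ligase Mdm2 and its partner Mdm4. DNA damage frees it from them, and it then binds paired half-sites in DNA and raises transcription of genes that stop the cell cycle, start cell death, repair DNA or restrain growth. Mdm2 is itself such a target, which closes a feedback loop. In liver, Cdkn1a is among its best known targets. Platinum adducts are a classic trigger of this pathway.

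The libraries held 18083916 to 29934138 counted reads each. Levels are given in CPM (counts scaled to a common library size, after edgeR's TMM normalization) in the order of library number: 1 to 4 in WT_CT8, 5 to 8 in WT_CT16, 9, 10, 15 and 16 in CryDKO_CT8, and 11 to 14 in CryDKO_CT16. Cry2 lay at 23.1 to 33.3 CPM in CryDKO and at 39.9 to 58.9 CPM in WT, while Cry1 lay higher in CryDKO (20.5 to 29.0 CPM) than in WT (5.14 to 15.9 CPM). Cry1 thus went against the label. The deleted part of either gene is unknown here, so these whole-gene counts did not check the knockout, and CryDKO stands throughout for libraries labelled CryDKO. WT_CT16 library 8 stood apart from its group. Over all tested genes its root mean square distance in log2(CPM + 1) was 0.318 to the WT_CT8 libraries and 0.485 to the other WT_CT16 libraries, so results for WT_CT16 are also given without it. In CryDKO, 5 of the 8 libraries (10, 15 and 16 of CT8, 11 and 12 of CT16) lay nearer the group of the other dosing time than the rest of their own. The labels do not say that replicates came from separate animals, so p-values measure only how far these samples spread, and some of that may be technical. Labels tie the samples to liver, and the summed level of 5 hepatocyte markers lay at 45181 to 148840 CPM in the 16 libraries. In bulk tissue, fewer cells of a type and less RNA per cell cannot be told apart.

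Promoter windows of 250 bases before an annotated start were taken from RefSeq (build GRCm38.p6, older than the GRCm39 build of the counts), which held 37 windows for 26 of the 32 genes. A 10-base p53 half-site lay in 12 of the 26 genes (46.2%), against 8.20% of 27025 genes with a window. By window the shares were 32.4% of 37 and 7.13% of 32851. The genes were chosen as p53, its regulators and well-known targets, so a higher share than in all genes may follow from that choice. The half-site consensus reads the same on both strands, so one search covers both. The genes with a match were Trp53, Mdm2, Ppm1d, Cdkn1a, Ccng1, Bax, Aen, Ei24, Sesn1, Ddit4l, Polk and Rps27l. A pair of half-sites, with a spacer of up to 13 bases, was found in 1 of the 26 genes, Cdkn1a, and in 0.0666% of all genes. The E-box CACGTG, the element that the clock activators bind, lay in 5 of the 26 (Bax, Bbc3, Aen, Fas and Gdf15), against 6.86% of all, and it overlapped no half-site in them. A match is a description of these letters, not a measured binding site.

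Of the genes that changed by genotype in the results that follow, Ddit4, Phlda3, Sesn2, Btg2 and Mdm4 had no half-site in their windows. Rrm2b and Zmat3 also changed but had no window to search. The other genes that changed, Cdkn1a, Mdm2, Bax, Ddit4l, Ppm1d, Polk and Rps27l, did have a half-site. The windows of 4 of them, Cdkn1a, Mdm2, Bax and Ddit4l, are shown, with p53 half-sites in capitals. They lie at chr17:29090729-29090978 on the plus strand (Cdkn1a, the upstream one of its 2 windows), chr10:117710759-117711008 on the minus strand (Mdm2), chr7:45466899-45467148 on the minus strand (Bax) and chr3:137623422-137623671 on the plus strand (Ddit4l).
Cdkn1a: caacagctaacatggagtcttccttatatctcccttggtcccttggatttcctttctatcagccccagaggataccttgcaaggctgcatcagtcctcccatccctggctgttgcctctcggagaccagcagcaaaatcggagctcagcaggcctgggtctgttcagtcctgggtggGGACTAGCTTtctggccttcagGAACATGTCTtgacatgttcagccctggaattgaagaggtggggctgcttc
Mdm2: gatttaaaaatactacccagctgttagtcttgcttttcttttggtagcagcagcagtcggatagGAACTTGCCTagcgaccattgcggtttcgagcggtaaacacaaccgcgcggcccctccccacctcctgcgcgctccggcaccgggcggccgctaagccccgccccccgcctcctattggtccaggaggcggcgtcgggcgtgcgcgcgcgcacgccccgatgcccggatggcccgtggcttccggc
Bax: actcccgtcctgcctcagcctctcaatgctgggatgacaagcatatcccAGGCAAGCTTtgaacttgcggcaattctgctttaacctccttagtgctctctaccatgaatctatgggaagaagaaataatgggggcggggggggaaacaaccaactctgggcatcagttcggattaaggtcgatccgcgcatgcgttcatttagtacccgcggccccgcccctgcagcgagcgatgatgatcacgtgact
Ddit4l: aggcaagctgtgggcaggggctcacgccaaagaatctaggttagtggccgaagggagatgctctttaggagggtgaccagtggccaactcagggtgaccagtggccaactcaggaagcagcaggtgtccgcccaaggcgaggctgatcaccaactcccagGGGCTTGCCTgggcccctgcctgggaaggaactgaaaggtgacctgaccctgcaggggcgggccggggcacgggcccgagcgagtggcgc
Counted back from the start, the half-sites of Cdkn1a span bases -73 to -64 and -51 to -42. In Mdm2 the half-site spans -186 to -177, in Bax -201 to -192 and in Ddit4l -90 to -81, and the E-box of Bax spans -9 to -4.

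At both dosing times 6 of the 32 genes were higher in CryDKO than in WT: the cell cycle inhibitor Cdkn1a, the cell death genes Bax and Phlda3, and Sesn2, Ddit4 and Ddit4l, which restrain the growth kinase mTORC1. At CT8 another target, Btg2, rose and 5 genes fell: the p53 antagonists Mdm2 and Mdm4, Rps27l, and the repair and nucleotide genes Polk and Rrm2b. At CT16 Ppm1d and Zmat3 rose in addition and none fell. In all, 14 genes (43.8%) changed by genotype at one time or the other, about as many in proportion as of all genes (44.4%), and 18 did not pass in any comparison. Those higher at both times were 18.8% of the 32 and 6.16% of all genes. Each of these 6 lost its call at CT8, at CT16 or at both in some alternative fits. With scaling by library size alone only Ddit4 kept both calls, and without WT_CT16 library 8 only Bax and Ddit4l did. The 32 genes were chosen with earlier results of these data known. Changes are given as the log2 change (CryDKO minus WT, or CT16 minus CT8) with its approximate standard error, and called at an adjusted p under 0.05 in the quasi-likelihood test of edgeR, with the adjustment of Benjamini and Hochberg over the 14484 genes.

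Read against all genes, the share of p53 genes that passed at CT8 was near the background. At CT8, 12 of 32 (37.5%) passed, 7 higher and 5 lower, against 39.0% of all genes tested, of which 18.7% were higher and 20.3% lower. At CT16, 8 of 32 (25.0%) passed, all higher, against 18.2% of all genes, of which 9.0% were higher and 9.15% lower. The median log2 change of the 32 genes was 0.01 at CT8 and 0.22 at CT16, beside -0.02 and -0.01 over all genes. The count at CT8 lay between 8 and 13 when any 1 library was left out, whereas at CT16 it fell to 4 without WT_CT16 library 7, 3 without library 8 (9.38%, against 12.9% of all genes in that fit), and 5 without CryDKO_CT16 library 12 (against 13.1%) or 13. The fits without library 7 and 13 called 2110 and 1821 of all genes at CT16. Over all fits that leave out 1 library, 4274 to 6112 of all genes passed at CT8. Scaling by library size alone, which shifted the median change of all genes by -0.34 at CT8 and -0.15 at CT16, gave 3 higher and 10 lower at CT8 and 5 higher and 0 lower at CT16. With that scaling 6.63% of all genes were higher and 35.4% lower at CT8, beside 9.38% and 31.2% of the 32, and 4.18% of all genes were higher at CT16, beside 15.6%. The TMM factors behind this lay at 1.13 to 1.24 in WT_CT8, 0.921 to 1.20 in WT_CT16, 0.840 to 1.02 in CryDKO_CT8 and 0.812 to 0.951 in CryDKO_CT16. Levels of the genotypes did not overlap in 8 of the 32 genes at CT8 and in 7 at CT16. Of all genes, 39.2% did not overlap at CT8 and 19.8% at CT16, so the lack of overlap given for single genes below was common.

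**Figure D1:**
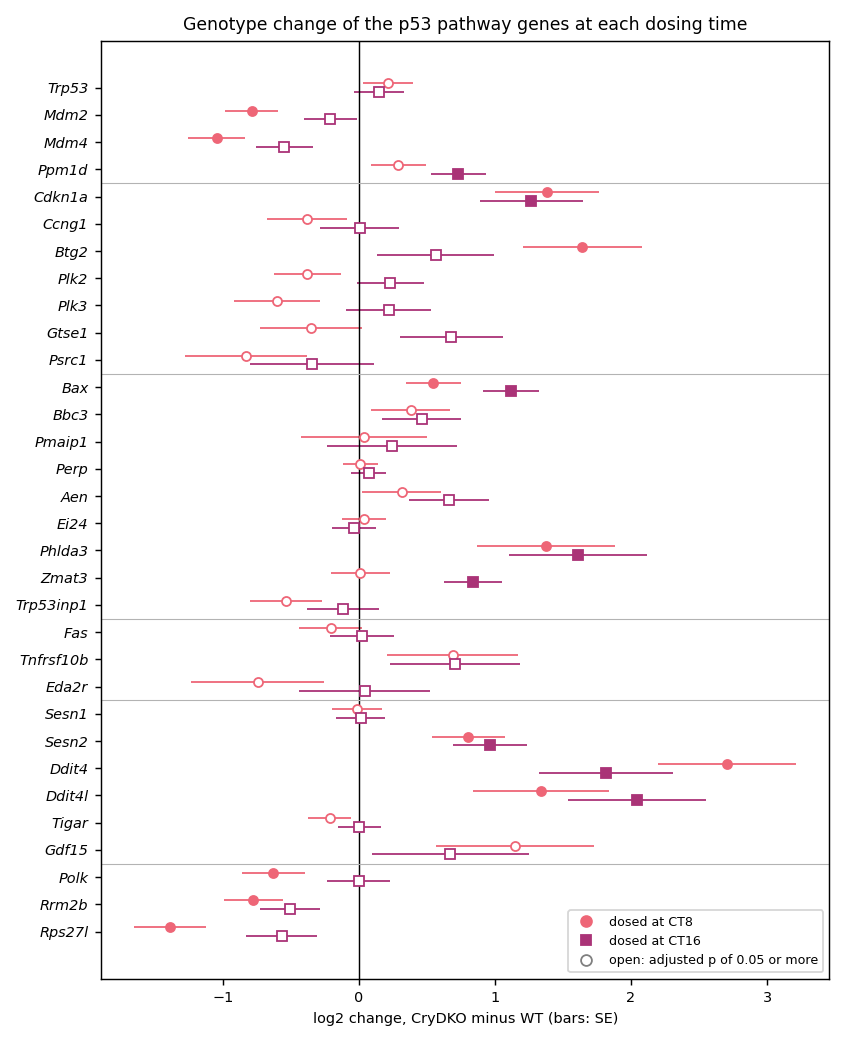
Log2 change by genotype (CryDKO minus WT, x axis, with SE) for each of the 32 genes (y axis, grouped by role), at CT8 (circles) and CT16 (squares); filled symbols passed the threshold. Ddit4 lies farthest to the right at CT8 (2.71) and Rps27l farthest to the left (-1.39).

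Among p53 and its direct regulators, the transcript of p53 itself did not pass while both antagonists fell at CT8. The antagonists were 2 of the 4 genes of this group, beside 20.3% of all genes that fell at CT8. At CT16, 1 of the 4 rose, beside 9.0% of all genes. Trp53 was measured at 16.1, 22.1, 20.8 and 23.1 CPM in WT_CT8 and 16.5, 19.0, 17.2 and 16.8 in WT_CT16. In CryDKO its levels were 33.8, 22.3, 18.6 and 20.3 CPM in CryDKO_CT8 and 19.8, 24.4, 19.0 and 13.8 in CryDKO_CT16, so the groups overlapped. The change was 0.21 ± 0.18 at CT8 (adjusted p = 0.369) and 0.15 ± 0.18 at CT16 (0.613) by edgeR with Benjamini-Hochberg adjustment.

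Mdm2, the ligase that marks p53 for breakdown, stood at 92.8, 78.5, 78.0 and 96.4 CPM in WT_CT8 and 45.6, 45.5, 56.1 and 77.1 in WT_CT16. Its levels were 56.1, 32.4, 52.7 and 59.0 CPM in CryDKO_CT8 and 37.4, 59.7, 50.9 and 45.9 in CryDKO_CT16. All 4 libraries of WT_CT8 lay above all 4 of CryDKO_CT8, and in WT_CT16 library 8 was the high one. The change was -0.79 ± 0.20 at CT8 (adjusted p = 0.00398) and -0.21 ± 0.19 at CT16 (0.477) by edgeR with Benjamini-Hochberg adjustment.

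Mdm4, which blocks the activating domain of p53, followed a like pattern of levels, with 56.7, 87.2, 54.8 and 64.1 CPM in WT_CT8 and 40.4, 34.4, 34.4 and 60.5 in WT_CT16. In CryDKO it had 34.4, 30.3, 22.8 and 39.6 CPM in CryDKO_CT8 and 27.3, 23.6, 28.2 and 37.1 in CryDKO_CT16. Again WT_CT8 did not overlap with CryDKO_CT8, and the change was -1.05 ± 0.21 at CT8 (adjusted p = 0.000869) and -0.55 ± 0.21 at CT16 (0.0712) by edgeR with Benjamini-Hochberg adjustment. Both falls at CT8 kept their call in all 26 alternatives.

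Ppm1d encodes the phosphatase WIP1, which turns p53 signalling off again. It stood at 5.73, 4.58, 4.74 and 5.85 CPM in WT_CT8 and 4.95, 5.22, 5.51 and 4.15 in WT_CT16. In CryDKO it stood at 6.49, 5.66, 8.58 and 4.81 CPM in CryDKO_CT8 and 6.11, 8.09, 8.05 and 10.6 in CryDKO_CT16. At CT16 the 2 genotypes did not overlap (log2 change 0.73 ± 0.20, adjusted p = 0.0171), and at CT8 they did (0.29 ± 0.20, 0.269), by edgeR with Benjamini-Hochberg adjustment. Leaving out WT_CT16 library 8 or CryDKO_CT16 library 14 ended the call at CT16 (0.58 to 0.85 over the fits that leave out 1 library).

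Of the 7 genes of cell cycle arrest and mitosis, 2 rose and 0 fell at CT8, and 1 rose and 0 fell at CT16. Those that rose were 28.6% and 14.3% of the group, beside 18.7% and 9.0% of all genes. Cdkn1a encodes p21, the inhibitor of cyclin-dependent kinases through which p53 stops the cell cycle. It lay at 44.2, 23.6, 37.4 and 48.4 CPM in WT_CT8 and 18.8, 34.9, 31.8 and 33.4 in WT_CT16. In CryDKO it lay at 144, 39.9, 127 and 89.9 CPM in CryDKO_CT8 and 40.6, 109.9, 69.8 and 65.4 in CryDKO_CT16. Of the CryDKO libraries, 10 and 11 were the low ones, at less than the highest WT value, and the other 6 exceeded every WT library. The change was 1.38 ± 0.38 at CT8 (adjusted p = 0.0111) and 1.27 ± 0.38 at CT16 (0.0333) by edgeR with Benjamini-Hochberg adjustment. The call at CT8 held in all 26 alternatives, and that at CT16 was lost in 9, among them scaling by library size alone, where it was 1.10, each fit without 1 of the WT_CT16 libraries, and those without library 12, 13 or 14 (0.98 to 1.46 over the fits that leave out 1 library).

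Btg2, an antiproliferative gene that is also induced early by many stimuli, had 26.1, 16.7, 20.01 and 21.1 CPM in WT_CT8 and 26.7, 54.1, 22.1 and 17.3 in WT_CT16. Its CryDKO levels were 117, 35.1, 56.4 and 52.8 CPM in CryDKO_CT8 and 32.3, 71.2, 24.7 and 49.1 in CryDKO_CT16. At CT8 the genotypes did not overlap, with library 9 the highest. The change was 1.64 ± 0.44 at CT8 (adjusted p = 0.01001) and 0.56 ± 0.43 at CT16 (0.388), and the difference between the times was -1.08 ± 0.61 (0.450), by edgeR with Benjamini-Hochberg adjustment.

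Ccng1, which encodes cyclin G1, a target often used as a readout of p53 in mouse liver, did not pass. It stood at 135, 79.0, 119 and 117 CPM in WT_CT8 and 84.3, 83.7, 99.0 and 129.6 in WT_CT16. CryDKO values were 79.2, 36.5, 122 and 107 CPM in CryDKO_CT8 and 76.6, 141, 86.9 and 92.8 in CryDKO_CT16, with library 10 the lowest of all 16. The log2 change was -0.38 ± 0.29 at CT8 and 0.00 ± 0.29 at CT16. The remaining members of the group were the polo-like kinase genes Plk2 and Plk3, and Gtse1 and Psrc1, which act at the mitotic spindle. Over the 16 libraries Plk2 lay at 13.6 to 34.8 CPM, Plk3 at 63.6 to 270.3 CPM, Gtse1 at 1.69 to 8.45 CPM and Psrc1 at 0.764 to 4.95 CPM. Their changes by genotype lay between -0.83 (Psrc1, CT8) and 0.68 (Gtse1, CT16) and none passed. Of 10 tested proliferation genes, Birc5 fell at CT8 (-1.56 ± 0.31) and 0 passed at CT16.

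**Figure D2:**
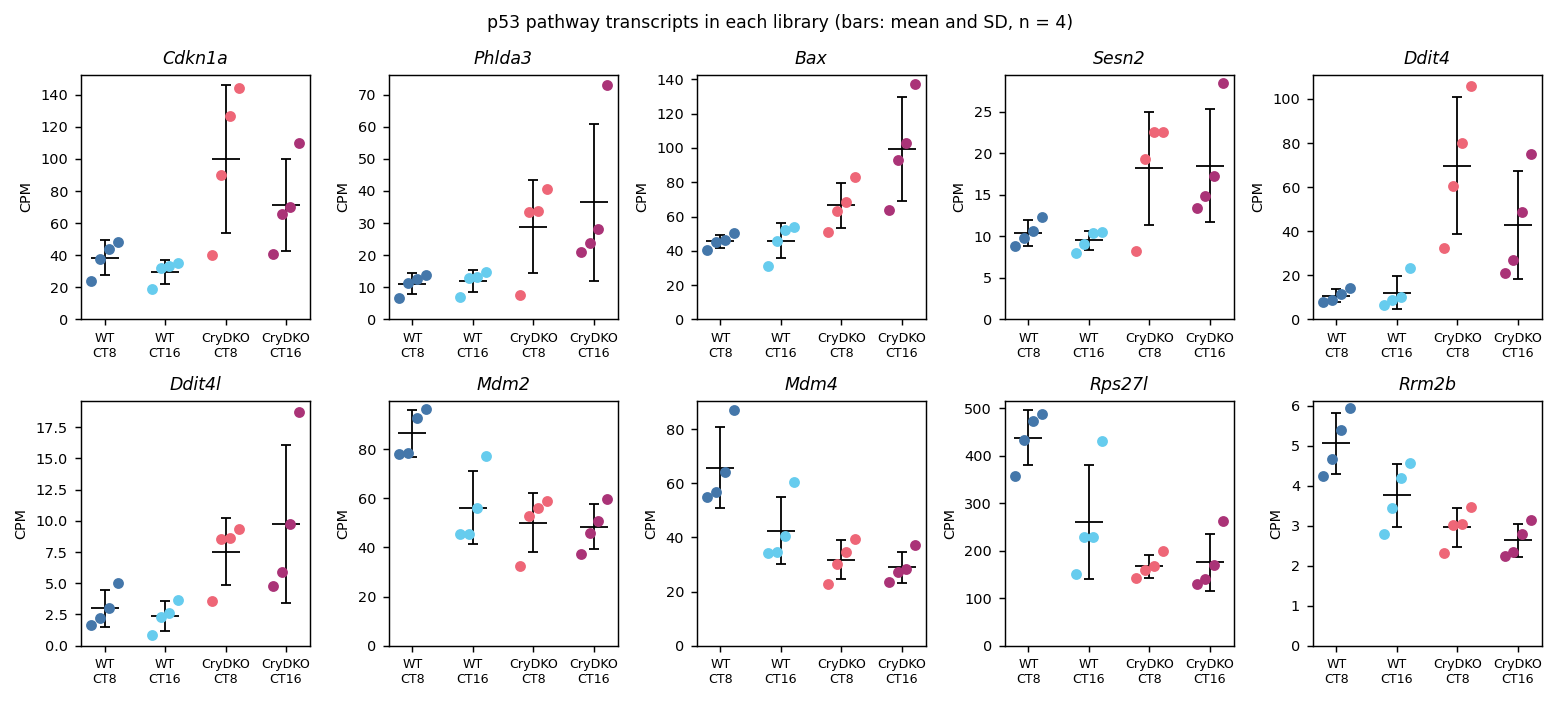
CPM in each library (y axis, from 0) of 10 genes in the 4 groups (x axis), with 1 point per library and bars for the mean and SD of 4. The WT groups lie low for Cdkn1a to Ddit4l, and WT_CT8 lies high for Mdm2, Mdm4, Rps27l and Rrm2b.

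Of the 9 genes of cell death, 2 rose at CT8 and 3 at CT16, and 0 fell. The shares that rose, 22.2% and 33.3%, stood beside 18.7% and 9.0% of all genes. Bax, the protein that opens the mitochondrial membrane, had 45.2, 46.2, 40.7 and 50.2 CPM in WT_CT8 and 31.4, 52.2, 53.9 and 45.9 in WT_CT16. In CryDKO it had 68.3, 51.1, 83.2 and 63.4 CPM in CryDKO_CT8 and 64.1, 138, 92.7 and 103 in CryDKO_CT16. At both times every CryDKO library lay above every WT library of that time. The change was 0.54 ± 0.20 at CT8 (adjusted p = 0.0390) and 1.12 ± 0.20 at CT16 (0.00121) by edgeR with Benjamini-Hochberg adjustment. The call at CT16 held in all 26 alternatives, and the one at CT8 was lost in 7, with a change of 0.19 when scaled by library size alone and 0.43 to 0.66 over the fits that leave out 1 library (lost without library 1, 2, 3, 9 or 15). In the reference annotation an exon of Bax shares bases with another gene model, so its count may miss reads. Exons of Cdkn1a, Plk3, Ei24, Tigar and Rrm2b share bases with a gene on the other strand, and with no strand setting given in the sources used here, reads of these partners cannot be told apart.

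Phlda3, which restrains the survival kinase Akt, was measured at 11.4, 6.59, 13.9 and 12.6 CPM in WT_CT8 and 7.01, 12.8, 14.8 and 13.2 in WT_CT16. The CryDKO libraries had 33.3, 7.64, 40.7 and 33.7 CPM in CryDKO_CT8 and 20.9, 72.9, 28.0 and 23.9 in CryDKO_CT16. Library 10 was low and within the WT range, and library 12 was far above the other 3 of its group. The change was 1.37 ± 0.51 at CT8 (adjusted p = 0.0464) and 1.61 ± 0.51 at CT16 (0.0437) by edgeR with Benjamini-Hochberg adjustment, and each call was lost in 14 of 26 alternatives. Of the 16 fits that leave out 1 library, 11 lost the CT8 call (all but those without library 5, 10, 11, 12 or 14) and 11 the CT16 call (all but those without 2, 10, 11, 14 or 15). Without library 10 the change at CT8 was 1.70 ± 0.41 (adjusted p = 0.00740), and without library 12 that at CT16 was 1.02 ± 0.44 (0.142).

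Zmat3, an RNA-binding regulator that p53 induces, rose at CT16. It lay at 19.2, 12.0, 11.9 and 16.2 CPM in WT_CT8 and 10.9, 10.5, 13.1 and 12.4 in WT_CT16. In CryDKO it lay at 16.8, 11.6, 16.6 and 14.7 CPM in CryDKO_CT8 and 13.4, 29.8, 24.6 and 16.1 in CryDKO_CT16. The genotypes did not overlap at CT16 (0.84 ± 0.22, adjusted p = 0.0115), and the change at CT8 was 0.01 ± 0.21 (0.975) by edgeR with Benjamini-Hochberg adjustment. The difference between these changes did not pass (interaction 0.83 ± 0.30, adjusted p = 0.278), and the CT16 call was lost without library 12 (0.62) or, at 0.69, with scaling by library size alone. The other 6 genes of the group, Bbc3 and Pmaip1, which encode the BH3 proteins PUMA and NOXA, Perp, Aen, Ei24 and Trp53inp1, did not pass, with changes from -0.54 (Trp53inp1, CT8) to 0.66 (Aen, CT16). Bbc3 lay at 6.47 to 24.4 CPM and changed by 0.38 ± 0.29 at CT8 and 0.46 ± 0.29 at CT16. Aen, an exonuclease gene of apoptosis, lay at 19.6 to 59.6 CPM, Ei24 at 139.5 to 253 CPM and Trp53inp1, a stress protein gene, at 60.8 to 253 CPM. Pmaip1 was the lowest of all 32 genes, with 4 to 22 reads per library, so that small differences in it were not detectable at this depth. Perp, a membrane protein gene, stood at 90.3 to 130.2 CPM in all 16 libraries, the narrowest range of the 32 genes relative to its level.

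Of the 3 death receptor genes none passed at either time, beside 39.0% of all genes at CT8 and 18.2% at CT16. Fas, the classic one, lay at 11.1 to 30.2 CPM, with both ends in CryDKO libraries (10 and 12), and changed by -0.21 ± 0.23 at CT8 and 0.02 ± 0.23 at CT16. Tnfrsf10b, the TRAIL receptor, lay at 1.01 to 6.59 CPM and changed by 0.69 ± 0.48 at CT8 and 0.71 ± 0.48 at CT16. Eda2r, a receptor of the same family, lay at 1.62 to 15.6 CPM and changed by -0.74 ± 0.49 at CT8 and 0.04 ± 0.48 at CT16.

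Among the 6 genes of growth control, redox balance and secretion, the 3 that rose at each time all encode inhibitors of mTORC1, and 0 fell. These 3 of 6 stood beside 18.7% of all genes that rose at CT8 and 9.0% that rose at CT16. Sesn2, which senses leucine and oxidative stress, had 12.4, 8.79, 9.82 and 10.7 CPM in WT_CT8 and 10.5, 10.4, 8.01 and 9.07 in WT_CT16. In CryDKO it had 22.5, 8.22, 22.6 and 19.4 CPM in CryDKO_CT8 and 17.3, 28.5, 14.9 and 13.4 in CryDKO_CT16. Library 10 again lay within the WT range and the other 7 CryDKO libraries lay above all of WT. The change was 0.80 ± 0.27 at CT8 (adjusted p = 0.0256) and 0.96 ± 0.27 at CT16 (0.0202) by edgeR with Benjamini-Hochberg adjustment, and 5 and 3 of 26 alternatives lost these calls. The CT8 call was lost without library 2, 9 or 15 (0.69 to 1.06 over the fits that leave out 1 library) and the CT16 call without library 7, 8 or 12 (0.68 to 1.09). Scaled by library size alone, the change at CT8 was 0.46.

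Ddit4, which encodes REDD1, had the largest change by genotype of the 32 genes at CT8. It lay at 14.4, 9.01, 11.4 and 7.92 CPM in WT_CT8 and 6.56, 23.1, 8.86 and 10.1 in WT_CT16. In CryDKO it lay at 106, 60.5, 80.2 and 32.3 CPM in CryDKO_CT8 and 20.9, 26.8, 48.6 and 75.0 in CryDKO_CT16. The CT8 groups did not overlap, and at CT16 WT library 6 lay above CryDKO library 11. The change was 2.71 ± 0.51 at CT8 (adjusted p = 0.00135) and 1.81 ± 0.49 at CT16 (0.0229) by edgeR with Benjamini-Hochberg adjustment. All 26 alternatives kept the CT8 call, and 6 lost the one at CT16, among them the fits without library 5, 7, 8, 13 or 14 (1.40 to 2.33 over all fits that leave out 1 library).

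Ddit4l, the paralog that encodes REDD2, was low in WT, at 2.24, 1.64, 3.02 and 5.03 CPM in WT_CT8 and 0.825, 2.63, 2.32 and 3.70 in WT_CT16. CryDKO libraries had 9.33, 3.55, 8.58 and 8.62 CPM in CryDKO_CT8 and 9.76, 18.7, 4.74 and 5.89 in CryDKO_CT16. At CT16 the genotypes did not overlap. The change was 1.34 ± 0.50 at CT8 (adjusted p = 0.0453), lost in 12 of 26 alternatives (1.15 to 1.73 over the fits that leave out 1 library, lost without 1, 2, 3, 6, 7, 9, 11, 15 or 16), and 2.04 ± 0.51 at CT16 (0.0132), kept in all 26, by edgeR with Benjamini-Hochberg adjustment. Sesn1, the sestrin best known as a p53 target, stood at 6.38 to 16.4 CPM and changed by -0.02 ± 0.18 and 0.01 ± 0.18, which did not pass.

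Gdf15, a secreted stress hormone, did not pass and was uneven within the CryDKO groups. It was measured at 19.1, 13.2, 23.8 and 15.5 CPM in WT_CT8 and 17.4, 23.1, 19.3 and 28.4 in WT_CT16. CryDKO libraries had 88.3, 20.5, 21.9 and 27.6 CPM in CryDKO_CT8 and 19.2, 83.4, 21.5 and 15.8 in CryDKO_CT16. Libraries 9 and 12 were high and the other 6 CryDKO libraries lay at 15.8 to 27.6 CPM, within the WT range of 13.2 to 28.4 CPM. The change was 1.15 ± 0.58 at CT8 (adjusted p = 0.137) and 0.67 ± 0.58 at CT16 (0.450) by edgeR with Benjamini-Hochberg adjustment. Without library 12 the change of Gdf15 at CT8 was 1.15 ± 0.42 and passed (adjusted p = 0.0441 by edgeR with Benjamini-Hochberg adjustment). Tigar, which steers glucose toward the pentose phosphate pathway, lay at 7.34 to 12.8 CPM and did not pass.

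Sesn2, Ddit4 and Gdf15 are known also as targets of ATF4, the factor of the integrated stress response. Of 10 tested ATF4 targets outside the 32 genes 4 rose at CT8, Trib3 (2.46 ± 0.71), Atf3 (3.54 ± 1.15), Vldlr (1.52 ± 0.51) and Fgf21 (3.84 ± 1.41), and 0 fell. The share that rose was 40.0%, beside 18.7% of all genes, and all 10 had a log2 change above 0 at CT8. The median of that list was 1.25 at CT8 and 0.27 at CT16, where 0 passed. Its part in the changes of Sesn2 and Ddit4 was not tested.

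The remaining 3 genes, Polk, Rrm2b and Rps27l, all fell at CT8, beside 20.3% of all genes, and 0 passed at CT16. Only Polk and Rrm2b of them are genes of repair or nucleotide supply, and Rps27l was grouped with them. Rps27l, which encodes a ribosomal protein variant that p53 induces and that stabilises p53, was the most highly expressed of the 32. It stood at 489, 358, 432 and 473 CPM in WT_CT8 and 151, 229, 228 and 431 in WT_CT16. In CryDKO it stood at 169, 142, 199 and 159.7 CPM in CryDKO_CT8 and 130.3, 262, 169 and 139.9 in CryDKO_CT16. WT_CT8 and WT_CT16 library 8 lay at 358 CPM or more, and every other library at 262 CPM or less. The change was -1.39 ± 0.26 at CT8 (adjusted p = 0.000685) and -0.57 ± 0.26 at CT16 (0.137) by edgeR with Benjamini-Hochberg adjustment. Without library 12 the change at CT16 was -0.82 ± 0.26 and passed (adjusted p = 0.0395). Rps27l has a close paralog, Rps27, so reads could be split between them.

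Rrm2b, the p53-inducible subunit of ribonucleotide reductase, stood at 4.67, 5.94, 4.24 and 5.40 CPM in WT_CT8 and 4.21, 2.81, 3.45 and 4.57 in WT_CT16. In CryDKO it stood at 2.31, 3.46, 3.04 and 3.02 CPM in CryDKO_CT8 and 2.35, 3.14, 2.80 and 2.25 in CryDKO_CT16. At CT8 the genotypes did not overlap (-0.78 ± 0.22, adjusted p = 0.00896), and at CT16 the change was -0.51 ± 0.22 (0.114), by edgeR with Benjamini-Hochberg adjustment. Polk encodes a polymerase that copies past damaged bases. It had 14.1, 10.4, 12.5 and 13.8 CPM in WT_CT8 and 9.32, 8.38, 7.94 and 11.5 in WT_CT16, and 7.98, 5.89, 9.24 and 9.76 CPM in CryDKO_CT8 and 8.41, 14.5, 8.79 and 5.28 in CryDKO_CT16. Its change at CT8 was -0.63 ± 0.23 (adjusted p = 0.0370), lost without library 1, 3, 4, 9 or 10 (-0.72 to -0.49 over the fits that leave out 1 library), and at CT16 it was -0.003 ± 0.23 (0.994), by edgeR with Benjamini-Hochberg adjustment.

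**Figure D3:**
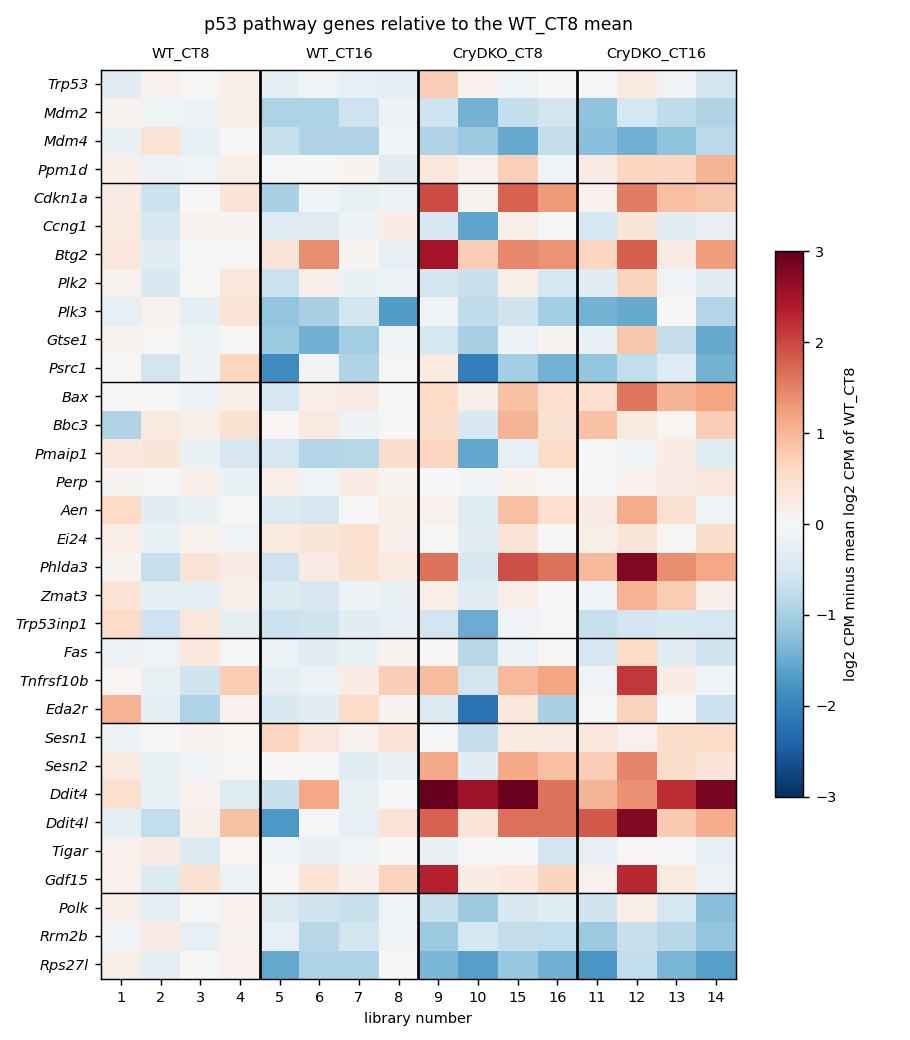
Log2 CPM of the 32 genes (rows, grouped by role) in the 16 libraries (columns, by library number), minus the mean of WT_CT8; the colour scale ends at 3 in either direction. Ddit4 in library 9 lies beyond the scale. Mdm2 and Rps27l, at 45.5 and 151 CPM at the lowest in WT_CT16, are blue in the CryDKO groups and in libraries 5 to 7, and near white in library 8.

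Targets of p53 moved in opposite directions by genotype at CT8, near the split of all genes. Of the 32 genes, 21.9% were higher and 15.6% lower, beside 18.7% and 20.3% of all genes. A ratio within a library does not depend on scaling, and 2 ratios, chosen after the values were seen, describe the split without a test. Each divides a gene called higher at both times by a gene called lower at CT8 and not called at CT16. A separation of the genotypes at either time therefore follows from that choice. The reads of Cdkn1a per read of Mdm2 were 0.476, 0.301, 0.480 and 0.502 in WT_CT8 and 0.411, 0.765, 0.567 and 0.433 in WT_CT16. They were 2.57, 1.23, 2.4 and 1.52 in CryDKO_CT8 and 1.08, 1.84, 1.37 and 1.43 in CryDKO_CT16. All 8 CryDKO libraries lay above all 8 WT libraries, library 10 included.

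The reads of Bax per read of Rps27l were 0.0925, 0.129, 0.0942 and 0.106 in WT_CT8 and 0.209, 0.227, 0.236 and 0.106 in WT_CT16. In CryDKO_CT8 they were 0.405, 0.361, 0.417 and 0.397 and in CryDKO_CT16 0.492, 0.524, 0.548 and 0.734. CryDKO again lay above WT throughout, and WT_CT16 library 8 lay with WT_CT8.

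**Figure D4:**
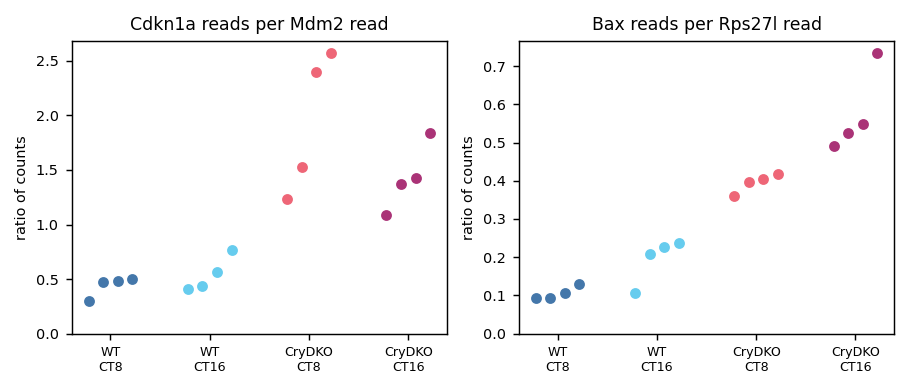
Reads of Cdkn1a per read of Mdm2 (left) and of Bax per read of Rps27l (right), both on a linear axis from 0, with 1 point per library in the 4 groups. The WT libraries reach 0.765 and 0.236, and the lowest CryDKO values are 1.08 and 0.361.

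Libraries of one group differed in the level of many of these genes at once. CryDKO_CT8 library 10 was the lowest of its 4 libraries in 25 of the 32 genes, against 25.5% of all genes tested. CryDKO_CT16 library 12 was the highest of its 4 in 21 of the 32, against 24.0% of all genes. Library 10 held the lowest level of all 16 libraries for Mdm2, Ccng1, Plk2, Psrc1, Pmaip1, Ei24, Trp53inp1, Fas, Eda2r and Sesn1. Library 12 held the highest of all 16 for Ccng1, Plk2, Gtse1, Bax, Aen, Phlda3, Zmat3, Fas, Tnfrsf10b, Sesn2, Ddit4l and Polk. Without library 10, 7 genes rose and 4 fell at CT8 (34.0% of all genes passed), and without library 12, 4 rose and 1 fell at CT16 (13.1%).

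Markers of liver cell types differed between the groups too. The summed level of 5 hepatocyte markers (of 6 listed) was 45181 to 57454 CPM in WT_CT8 and 95790 to 128940 CPM in CryDKO_CT8, and that of 8 macrophage markers (of 8) was 23.9 to 88.5 CPM in WT_CT16 and 91.0 to 140.4 CPM in CryDKO_CT16. Hepatocyte sums also separated the genotypes at CT16 (50288 to 86349 against 95515 to 148840 CPM), and macrophage sums overlapped at CT8. The hepatocyte sums were mostly reads of Alb, with means of 35953 CPM in WT_CT8 and 83115 in CryDKO_CT8. At CT16 its means were 49863 CPM in WT and 88379 in CryDKO. At each time 4 of the 5 hepatocyte markers had a log2 change above 0. Of single markers, 3 hepatocyte, 2 macrophage, 4 stellate and 2 cholangiocyte markers rose at CT8. Of all genes, 18.7% rose at CT8 and 9.0% at CT16. At CT16, 2 hepatocyte, 3 macrophage, 1 endothelial and 1 stellate marker rose, and of the cholangiocyte markers 1 rose and 1 fell. The sums of the remaining types overlapped between the genotypes. For 6 endothelial markers (of 6) all 16 libraries lay within 24.8 to 78.7 CPM. The 7 stellate cell markers (of 7) lay within 44.8 to 239.5 CPM and 5 cholangiocyte markers (of 5) within 25.8 to 146.2 CPM. Neutrophil markers (4 of 5 with reads, Mpo at 0) lay at 0.454 to 8.98 CPM, T and NK cell markers (5 of 5) at 0.198 to 2.14 CPM and B cell markers (4 of 4) at 0.198 to 1.53 CPM. The part of these differences in the changes of the p53 genes was not tested.

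The dosing times were compared within each genotype. In WT no p53 gene passed in edgeR, and 2.53% of all genes did. An unadjusted p under 0.05 was reached by 6 of the 32 (18.8%), fewer in proportion than of all genes (26.4%). DESeq2 called 3 of the 32, limma voom 1, limma voom with quality weights 8, and limma trend 0 on the normalized values that the authors deposited. The same fits called 1546, 955, 5237 and 158 of all genes, so a fit that called more of the 32 also called more of all genes. The lowest adjusted p values belonged to Plk3 (-1.07 ± 0.32, adjusted p = 0.0646), Mdm2 (-0.62 ± 0.19, 0.0667), Mdm4 (-0.63 ± 0.21, 0.0740) and Rps27l (-0.75 ± 0.26, 0.0871) by edgeR with Benjamini-Hochberg adjustment, each lower at CT16. Plk3, a polo-like kinase gene of the stress response, went from 171, 220.3, 169.8 and 270.3 CPM at CT8 to 89.7, 104, 140.0 and 63.6 at CT16, without overlap. Mdm2 and Sesn1 also separated the times, as 3 of 32 genes did, against 12.6% of all genes.

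Leaving out WT_CT16 library 8 changed this comparison. Mdm2 (-0.78 ± 0.19, adjusted p = 0.00885), Mdm4 (-0.81 ± 0.19, 0.00805), Rps27l (-1.07 ± 0.23, 0.00447) and Gtse1 (-1.15 ± 0.38, 0.0356) then passed edgeR with Benjamini-Hochberg adjustment, all lower at CT16. That is 4 of 32 (12.5%), beside 24.4% of all genes in the same fit, of which 11.5% were lower. Library 8 was left out because it lay nearer the WT_CT8 libraries, so a wider difference between the times follows in part from that choice. Leaving out library 5, 6 or 7 instead gave 0 of the 32 each time, and 0, 1 and 12 of all genes. Gtse1, which binds p53 and microtubules, went from 5.18, 4.92, 4.32 and 4.88 CPM at CT8 to 2.23, 1.76, 2.35 and 4.39 at CT16, library 8 being the last value. This comparison and that of genotype at CT8 share the WT_CT8 libraries, in which Mdm2, Mdm4 and Rps27l were high.

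**Figure D5:**
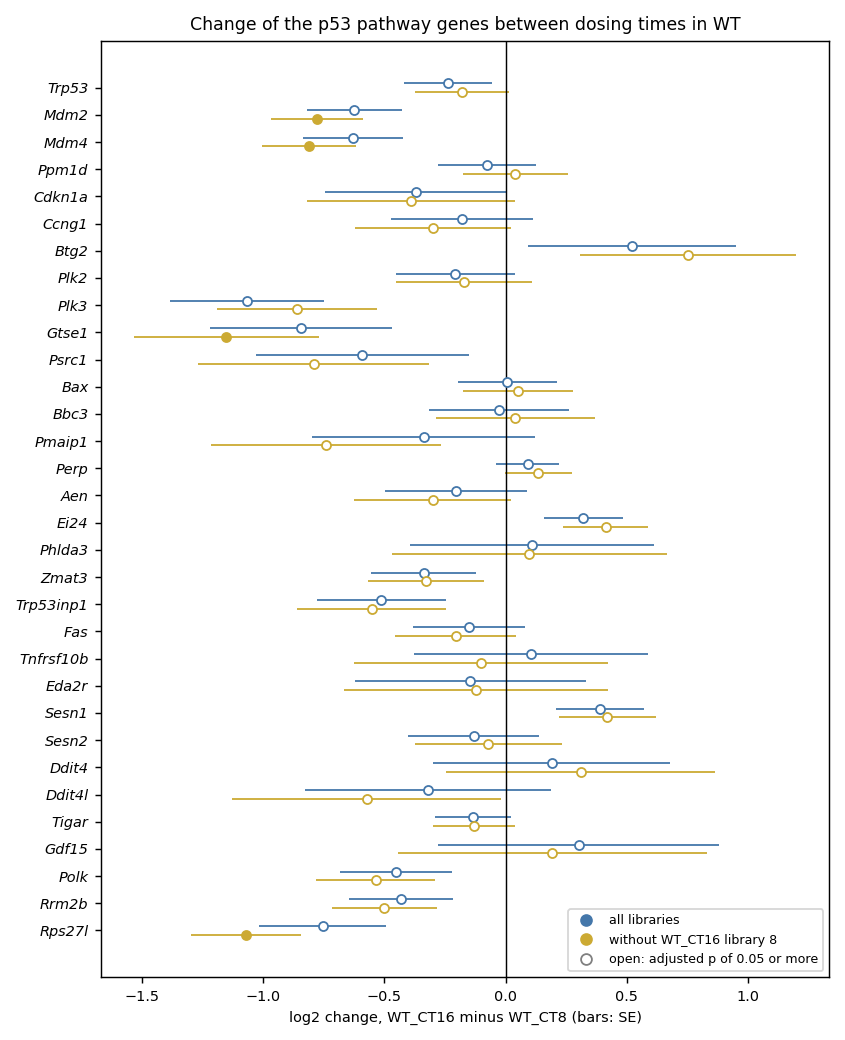
Log2 change between dosing times in WT (CT16 minus CT8, x axis, with SE) of the 32 genes (y axis) with all libraries (blue) and without WT_CT16 library 8 (yellow); filled symbols passed the threshold. Mdm2, Mdm4, Gtse1 and Rps27l are filled in the second set, and no gene is in the first.

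In CryDKO none of the 32 genes passed between the times in edgeR, with 3 (9.38%) at an unadjusted p under 0.05, beside 6.48% of all genes, and DESeq2 and the limma fits also called 0. Of all genes, 0.00% passed. The lowest p belonged to Bax, at 66.5 ± 13.3 CPM at CT8 and 99.3 ± 30.3 at CT16 (SD, n = 4; log2 change 0.58 ± 0.20, adjusted p = 0.671 by edgeR with Benjamini-Hochberg adjustment). Mdm2 changed by -0.05 ± 0.20 and Rps27l by 0.07 ± 0.26. The interaction of genotype and time, which asks whether these changes differ between the genotypes, passed for 0 of the 32 genes and 0.0414% of all. It had an unadjusted p under 0.05 in 3 of the 32 (9.38%) and in 13.3% of all genes. DESeq2 called 0 of the 32 and 134 of all genes, and limma voom with quality weights called 1 and 940. For Rps27l it was 0.82 ± 0.37 (adjusted p = 0.35) and, without WT_CT16 library 8, 1.14 ± 0.30 (0.0446) by edgeR with Benjamini-Hochberg adjustment, when 3.86% of all genes passed. For Mdm2 it was 0.58 ± 0.28 (0.372), and 0.73 ± 0.25 (0.0998) without that library, by edgeR with Benjamini-Hochberg adjustment. Leaving out that library, chosen because it lay nearer WT_CT8, widens the WT change between the times and so favours an interaction.

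Levels were compared between genes per kilobase of exon (RPKM, with exon lengths of the GENCODE M21 annotation of GRCm38). In WT_CT8 the mean level ran from 755 RPKM for Rps27l to 0.199 RPKM for Pmaip1. Plk3 (87.4 RPKM), Ei24 (72.6), Perp (52.9) and Bax (52.6) followed Rps27l. In CryDKO_CT16, Bax (114.5 RPKM) stood second behind Rps27l (302.5). Cdkn1a went from 14.1 RPKM in WT_CT8 to 36.9 RPKM in CryDKO_CT8, and Ddit4 from 6.09 to 39.7 RPKM.

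Outside the 32 genes, 38 further p53 targets were tested. At CT8, 6 rose and 3 fell by genotype (23.7%, below the 39.0% of all genes), with a median log2 change of 0.31. Among them were the cell surface gene Cd82 (0.74 ± 0.15), Sertad1 (0.98 ± 0.22), the ferredoxin reductase gene Fdxr (-0.70 ± 0.15) and the damage sensor gene Ddb2 (-1.13 ± 0.27). At CT16, 2 rose and 2 fell (10.5%, below the 18.2% of all genes), with a median of 0.18. They were the repressor gene Bcl6 (-1.57 ± 0.36), Sertad1 (0.71 ± 0.22), Rap2b (0.82 ± 0.27) and Fdxr (-0.46 ± 0.15). Between the times in WT, Cd82 rose (0.77 ± 0.15) and Ddb2 fell (-1.08 ± 0.27), and 0 of the 38 passed in CryDKO. Of 18 tested kinases, ligases and cofactors that act on p53, 0 rose and 3 fell at CT8, or 16.7%, also below 39.0%: the coactivator gene Crebbp (-0.51 ± 0.13) and the damage kinase genes Chek2 (-1.0 ± 0.30) and Atm (-0.60 ± 0.22). At CT16 Crebbp fell (-0.51 ± 0.14), as 1 of 18 (5.56%), and 0 rose.

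Among 17 tested clock genes, 6 rose and 5 fell by genotype at CT8, 5 rose and 5 fell at CT16, and 3 rose and 3 fell between the times in WT. Their shares were 64.7%, 58.8% and 35.3%, beside 39.0%, 18.2% and 2.53% of all genes. By genotype these counts include the targeted genes themselves, Cry1 among those that rose and Cry2 among those that fell at both times. Between the times in CryDKO, 0 of 17 passed, with log2 changes from -0.39 to 0.32.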

How the data were processed

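Polyadenylated RNA from liver was sequenced in 16 libraries, 4 in each of 4 groups of genotype and dosing time. The authors deposited raw read counts per gene for 40840 symbols. Per the submitters' processing notes, FastQC, Trimmomatic 0.35, STAR 2.5.3, HTSeq 1.99.2 and DESeq2 were used with build GRCm39 (mm39); no annotation or strand setting was named. The authors also deposited a normalized signal table of 19592 genes with at least 10 reads in all, in which each column is the count column divided by 1 size factor; the numbers of its 4 CryDKO_CT8 columns are exchanged among themselves, so it served only as an alternative. Library totals were 18083916 to 29934138 counts. Columns name the group and a running number, which is the library number used here.

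Counts of all 16 libraries were fitted together with edgeR 4.0.16 (R 4.3.3; filterByExpr, TMM scaling, robust quasi-likelihood fit), leaving 14484 genes, with Benjamini-Hochberg adjustment over all of them and a threshold of 0.05. Standard errors were taken as the absolute log2 change over the root of the F statistic. The procedure was tested on simulated data. Alternatives used DESeq2 1.42.0, limma 3.58.1, other scalings, other low count filters, only the compared groups, or left out 1 library at a time. The deposited signal was tested as log2(value + 1). Promoter windows came from RefSeq (GRCm38.p6) and exon lengths from GENCODE M21. Figures were drawn with matplotlib 3.10.9 in Python 3.11.15.

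The members and lists were chosen with earlier results of these data known. Genes that passed in at least 1 comparison, and Trp53, Mdm2, Cdkn1a, Ccng1, Bax and Gdf15 whatever their values, were described with every library; of other lists, up to 4 genes with the lowest adjusted p past the threshold were named per comparison. The further p53 target list held 39 symbols, of which 38 were tested.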

Additional observations from a re-analysis of the deposited data

Results flagged for a closer look

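In 8 of 128 groups of 4 libraries (32 genes in 4 groups), 1 library lay far from the other 3 by Dixon's criterion, which chance meets in about 1 in 20 groups. CryDKO_CT16 library 12 was the high one for 5 genes. Its level was 72.9 CPM for Phlda3, against 20.9 to 28.0 CPM in the other 3 libraries, and 83.4 CPM for Gdf15, against 15.8 to 21.5. For Plk2 it was 34.8 CPM against 17.2 to 20.04, for the death receptor gene Fas 30.2 CPM against 13.01 to 15.8, and for the death receptor gene Tnfrsf10b 6.59 CPM against 1.41 to 1.77. In CryDKO_CT8, library 9 had 88.3 CPM of Gdf15 against 20.5 to 27.6 in the others. Library 15 had 24.5 CPM of Plk2 against 13.6 to 15.02. Library 10 had 3.55 CPM of Ddit4l against 8.58 to 9.33, the one low value among the 8.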

How the results depend on the processing

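Of the 20 calls by genotype, 9 held in all 26 alternatives (Btg2, Cdkn1a, Ddit4, Mdm2, Mdm4, Rps27l and Rrm2b at CT8, Bax and Ddit4l at CT16), and 0 of the 20 changed direction. Of the 32 genes, those called between the times in WT numbered 0 in the edgeR fit, 3 with DESeq2, 1 with limma voom, 8 with voom quality weights, 1 with scaling by library size alone, and 1 with only the compared groups. At CT16 scaling by library size alone gave 5 calls by genotype in place of 8, and voom quality weights gave 1 interaction in place of 0. Leaving out 1 library gave 0 to 4 calls between times in WT, 0 to 0 in CryDKO, 8 to 13 by genotype at CT8, 3 to 8 at CT16, and 0 to 1 for the interaction; the cause was not tested. Over all genes, the calls between times in WT (367) ranged from 158 to 5237 with other settings and from 0 to 3580 with 1 library left out. The interaction (6) ranged from 0 to 940 and from 0 to 568, and the times in CryDKO (0) from 0 to 14 and from 0 to 3. No paired analysis was possible because columns are numbered through the whole series and do not carry the replicate numbers of the sample titles. With 4 libraries a group, and 4 to 22 reads of Pmaip1 per library, small changes of low genes were not detectable at this depth.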
